A study of Mus musculus with 6 samples.

Results

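The genes described here are the receptor tyrosine kinases other than the ErbB and Eph receptors. A list of 32 such receptors was taken by gene symbol, and all 32 were found among the 21966 genes of the deposited table. The study asked how gene expression in Apc-mutant colon tumor cells depends on the Group I Paks, kinases that act downstream of Rac and Cdc42. RNA was sequenced from primary epithelial cells grown out of mouse colon tumors, with 3 samples of PID+ cells (mice 4, 7 and 26) and 3 samples of PID− cells (mice 1, 2 and 3 in the labels, numbers that differ from those of the PID− cell lines in the paper). The genotype of the PID+ mice was CDX2P-NLS-Cre;APC^Δ/+;ROSA26-PID, in which Cre removes a stop cassette and switches on a GST-tagged inhibitory domain of Pak1 placed at the Rosa26 locus. The PID− mice were littermates with CDX2P-NLS-Cre;APC^Δ/+, so both groups carried the Cre, driven by a Cdx2 promoter active in the intestine, and the Apc deletion. In the labels, the PID− samples are described as normal and as not treated.

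Receptor tyrosine kinases span the cell membrane, bind a secreted or membrane-bound ligand outside the cell, pair up, and phosphorylate tyrosines on which adaptor proteins assemble. In the intestine the epithelium uses receptors such as Met for growth and repair, while Pdgf receptors mark the stroma beneath it, Vegf receptors its vessels, and Kit and Csf1r its pacemaker cells and macrophages. Epithelial cells that take on mesenchymal traits are known to exchange some of these receptors, for example the epithelial splice form of Fgfr2 for Fgfr1.

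Each gene had 1 value per condition, in FPKM, fragments scaled by transcript length and by the size of the library, since the authors merged the 3 sets of reads of a condition. No replicate spread and no test between conditions can therefore be had, and the only error available is the interval deposited with each FPKM, which comes from the error model of CuffDiff. These intervals were wide: over genes whose mean FPKM was 10 or more, the upper bound lay at a median of 73.9% above the FPKM in PID− cells and 75.1% above it in PID+ cells. A change is given as log2((PID+ FPKM + 1)/(PID− FPKM + 1)); for scarce genes this scale gives a smaller change than the ratio of the values. In a bulk sample, fewer cells of a type and less RNA per cell cannot be told apart.

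Of the 32 receptors, 0 were at least 3-fold higher in PID+ cells on this scale, where 1.04% of the 21959 genes compared were, and 2 (Fgfr1 and Flt1) were lower by at least 3-fold, as were 1.72% of genes. With a pseudocount of 0.1 in place of 1, 2 receptors (Mst1r and Kdr) were at least 3-fold higher and 4 (Fgfr1, Flt1, Pdgfrb and Mertk) at least 3-fold lower, beside 2.83% and 3.62% of all genes at that setting. With the median change of each chromosome subtracted, 1 (Mst1r) was higher and 2 were lower, beside 1.04% and 1.77% of 21532 genes. At 2-fold, 4 receptors were higher (Mst1r, Met, Kdr and Tyro3), beside 3.31% of all genes, and 2 were lower, beside 3.77%. With Gapdh set equal 1 receptor (Mst1r) was 2-fold higher and 3 (Fgfr1, Flt1 and Axl) were 2-fold lower, beside 1.18% and 11% of genes. The deposited intervals of the conditions did not overlap for 1 receptor, Flt1, which was lower in PID+ cells. Of all genes compared, 0.542% had such intervals and were lower. In the other direction there were 0 receptors, beside 0.187% of all genes compared. With 32 receptors these counts are small numbers, and each is carried by the genes named. As deposited, all 229 genes at least 3-fold higher and 377 lower were among the 11785 that reached 1 FPKM in either condition. Shares over all genes are thus lower than shares over those 11785.

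Most of the receptor RNA came from few genes. In PID− cells Ddr1, Ptk7 and Met held 55.2% of the summed FPKM of the 32 receptors, and in PID+ cells the same 3 held 68.6%. The sum was 188 FPKM in PID− cells and 254 FPKM in PID+ cells. In either condition, 15 receptors reached 1 FPKM, and 17 stayed under 1 in both. Over all 32 the median log2 change was 0.0022, and over all genes it was 0. Over those 15 it was 0.49, beside −0.01 over the 11785 genes under the same filter; Mst1r, Fgfr1, Fgfr3 and Ddr2 passed that filter only through the condition where they were higher. Scaling the conditions to equal Gapdh, which was 1.54 times as high in PID+ cells, moved the median of all genes whose mean FPKM was 5 or more by −0.58 and turned the median of the 15 to −0.11. Under that scaling, which multiplies every PID+ FPKM by 0.648, 9 receptors changed sign, among them Ddr1, Ptk7 and Flt4. Since it lowers all PID+ values alike, the count says nothing particular to receptors.

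**Figure D1:**
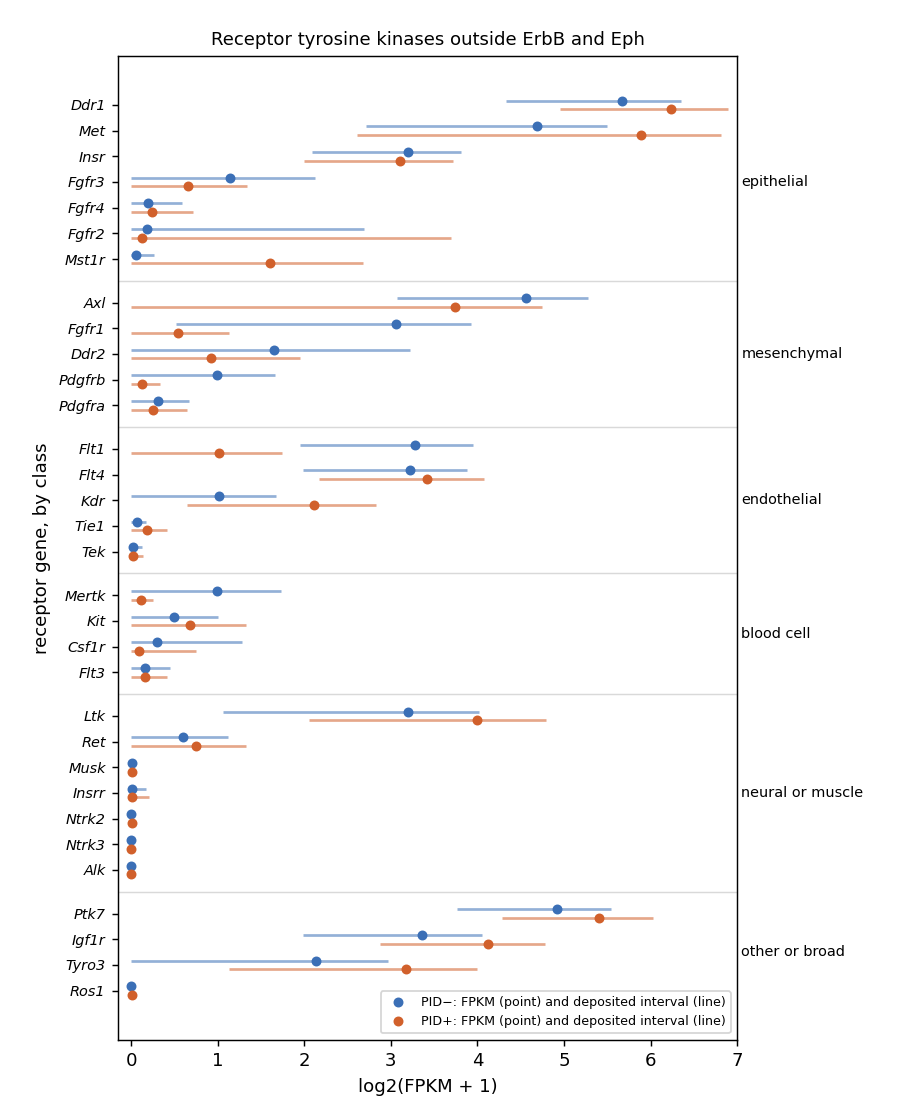
Level of each of the 32 receptors in PID− (blue) and PID+ (orange) cells, as log2(FPKM + 1), grouped by the cells that usually carry the receptor. Points are the pooled FPKM of each condition and lines the deposited intervals; the lines of Flt1 do not overlap, and those of the other receptors with an FPKM above 0 do.

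Receptors were grouped by textbook accounts of the cell that usually carries them in normal tissue, an assignment that is loose for some. The epithelial class held 7 receptors (Fgfr2, Fgfr3, Fgfr4, Met, Mst1r, Ddr1 and Insr). They summed to 84.3 FPKM in PID− cells and 143 FPKM in PID+ cells, a ratio of 1.70. Most of that sum came from Ddr1 (49.7 and 74.2 FPKM) and Met (24.9 and 58.4 FPKM), and the median log2 change of the class was 0.06. Insr, whose relative Igf1r was placed among other or broad receptors, added 8.16 and 7.59 FPKM to the sums. The mesenchymal class held 5 receptors (Fgfr1, Pdgfra, Pdgfrb, Axl and Ddr2). These summed to 33.2 FPKM in PID− cells and 13.9 FPKM in PID+ cells, a ratio of 0.419. Most of that sum came from Axl (22.5 and 12.3 FPKM), and the median log2 change of the class was −0.82. The epithelial class thus made up 44.9% of the summed receptor FPKM in PID− and 56.4% in PID+ cells, and the mesenchymal class 17.7% and 5.50%. All 5 mesenchymal receptors had a lower FPKM in PID+ cells, with 1 past 3-fold, while 4 of the 7 epithelial receptors had a higher FPKM and 3 a lower one, with 0 past 3-fold. Over all 21959 genes 9001 had a higher and 8726 a lower FPKM, and 1.04% were past 3-fold higher and 1.72% lower. With Gapdh set equal the ratios were 1.10 for the epithelial and 0.272 for the mesenchymal class.

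**Figure D2:**
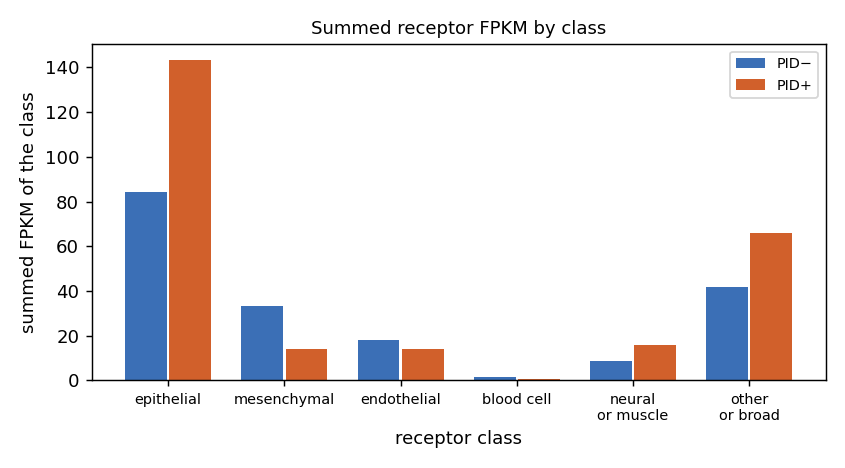
Summed FPKM of the receptors of each class in PID− (blue) and PID+ (orange) cells; bars start at 0 and have no error, since each condition has 1 pooled value per gene. The epithelial class went from 84.3 to 143 FPKM and the mesenchymal class from 33.2 to 13.9 FPKM.

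Among the epithelial receptors, Met, the receptor of hepatocyte growth factor (chr6:17463800-17573980, GRCm38, plus strand), had 24.9 FPKM in PID− cells (interval 5.56 to 44.2) and 58.4 FPKM in PID+ cells (5.08 to 112). Its log2 change was 1.20, or 0.86 once the median of chromosome 6, itself 0.34, was subtracted, and 0.59 with Gapdh set equal. The intervals overlapped: the PID+ value lay above the PID− interval, but the PID− value lay within the PID+ interval. No error of the difference could be computed.

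Mst1r, also called Ron, the receptor of macrophage stimulating protein and the closest relative of Met (chr9:107906873-107920383, plus strand), had 0.0420 FPKM in PID− cells (interval 0 to 0.198) and 2.03 FPKM in PID+ cells (0 to 5.39). The ratio of the FPKM was 48.4, the highest among receptors above 0 in PID− cells, from approximately 18 and 628 reads, while its log2 change with a pseudocount of 1 was 1.54, just under 3-fold. Mst1r was thus near 0 in PID− cells and low in PID+ cells, and the intervals overlapped.

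Ddr1, a collagen receptor of epithelial cells, was the most abundant receptor in both conditions, with 49.7 FPKM in PID− cells (interval 19.1 to 80.4) and 74.2 FPKM in PID+ cells (30.1 to 118). The log2 change was 0.57, and −0.05 with Gapdh set equal. Insr, the insulin receptor, had 8.16 FPKM in PID− cells and 7.59 FPKM in PID+ cells. On the log2 scale it changed by −0.09, and by −0.63 with Gapdh set equal.

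The Fgf receptors usual in epithelium were low. Fgfr3 had 1.20 FPKM in PID− cells and 0.572 FPKM in PID+ cells, and Fgfr4 had 0.140 and 0.185 FPKM. Fgfr2, whose epithelial splice form binds Fgf7 and Fgf10, had 0.134 FPKM in PID− cells and 0.0935 FPKM in PID+ cells, but with upper bounds of 5.43 and 12.0. The annotated span of Fgfr2 in Gencode M21 covers other coding genes, and its value is uncertain; whether the overlap bears on the bounds was not tested. Splice forms were not measured, since the values are per gene.

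In the mesenchymal class, Fgfr1, the Fgf receptor of mesenchyme (chr8:25513654-25575718, plus strand), had 7.34 FPKM in PID− cells (interval 0.432 to 14.2) and 0.454 FPKM in PID+ cells (0 to 1.18). Its log2 change of −2.52 was the lowest of the 32 receptors, and PID− cells had 16.1 times the FPKM of PID+ cells, from approximately 3356 and 150 reads. The intervals still overlapped. Fgfr1 held 3.91% of the receptor sum in PID− cells and 0.179% in PID+ cells, and the 4 Fgf receptors together went from 8.81 to 1.30 FPKM.

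Axl, a receptor of the Tam family that binds Gas6 and is often high in cells with mesenchymal traits, had 22.5 FPKM in PID− cells (interval 7.43 to 37.7) and 12.3 FPKM in PID+ cells (0 to 25.7). Axl was the most abundant mesenchymal receptor in both conditions. Its log2 change was −0.82 as deposited, −1.07 with the chromosome median subtracted and −1.39 with Gapdh set equal.

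Ddr2, the collagen receptor of fibroblasts, had 2.13 FPKM in PID− cells and 0.894 FPKM in PID+ cells. Pdgfrb, a receptor of pericytes and fibroblasts, had 0.987 and 0.0896 FPKM, a ratio of 11.0 in favor of PID− cells from approximately 487 and 32 reads. Pdgfra, its stromal relative, had 0.243 and 0.188 FPKM. Both Pdgf receptors were thus under 1 FPKM in each condition, and on the log2 scale used here Pdgfrb changed by −0.87 and Pdgfra by −0.07.

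The endothelial class held the receptor with intervals apart. Flt1, a Vegf receptor that binds Vegfa, Vegfb and Pgf (chr5:147561604-147726011, minus strand), had 8.67 FPKM in PID− cells (interval 2.87 to 14.5) and 1.02 FPKM in PID+ cells (0 to 2.34). The log2 change was −2.26, and PID− cells had 8.50 times the FPKM of PID+ cells. Kdr, the main signaling receptor of Vegfa, had 1.01 FPKM in PID− cells and 3.33 FPKM in PID+ cells, a log2 change of 1.11 (at equal Gapdh 0.65). Flt4, the receptor of Vegfc and Vegfd, had 8.34 and 9.71 FPKM. The 3 Vegf receptors thus did not move as a group: Flt1 was lower, Kdr higher and Flt4 close in PID+ cells, with overlapping intervals for Kdr and Flt4.

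The angiopoietin receptor Tek had 0.0149 FPKM in PID− cells and 0.0168 FPKM in PID+ cells, and Tie1, its partner, had 0.0489 and 0.132 FPKM. Both were close to 0. Of 8 endothelial markers, 7 were under 1 FPKM in both conditions, Cldn5 was listed at 0 in both, and the most abundant, Egfl7, had 8.82 FPKM in PID− cells and 11.4 FPKM in PID+ cells; the list summed to 9.52 and 12.4 FPKM. The part of these markers in the levels of the Vegf receptors was not tested.

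Receptors of blood cells were under 1 FPKM in both conditions. Kit, the stem cell factor receptor of mast cells and interstitial cells of Cajal, had 0.409 FPKM in PID− cells and 0.601 FPKM in PID+ cells. Csf1r, the receptor of macrophages, had 0.233 and 0.0595 FPKM and shares part of its span with Hmgxb3. Flt3, a receptor of blood progenitors, had 0.120 and 0.114 FPKM. Mertk, the Tam receptor of macrophages, was the exception in size, with 0.989 FPKM in PID− cells and 0.0781 FPKM in PID+ cells, from approximately 384 and 22 reads.

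The Tam family was divided. Tyro3, known mainly from the nervous system, had 3.40 FPKM in PID− cells and 8.06 FPKM in PID+ cells, a log2 change of 1.04 (at equal Gapdh 0.50), against −0.82 for Axl and −0.88 for Mertk. Intervals overlapped for Tyro3 and Axl, and for Mertk both lower bounds were 0.

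Igf1r, the receptor of insulin-like growth factors, had 9.25 FPKM in PID− cells (interval 2.96 to 15.5) and 16.4 FPKM in PID+ cells (6.35 to 26.5), a log2 change of 0.77 (at equal Gapdh 0.19). Ptk7, a receptor of the Wnt planar polarity pathway with an inactive kinase domain, had 29.1 FPKM in PID− cells and 41.4 FPKM in PID+ cells, with a log2 change of 0.49 and of −0.11 with Gapdh set equal. Ltk, a relative of Alk, had 8.15 FPKM in PID− cells and 15.0 FPKM in PID+ cells, a log2 change of 0.80 (at equal Gapdh 0.23). All 3 were among the more abundant receptors, and all 3 had overlapping intervals.

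The remaining receptors were scarce. Ret, the receptor of Gdnf family ligands, had 0.519 FPKM in PID− cells and 0.681 FPKM in PID+ cells. Insrr, an alkali-sensing relative of the insulin receptor, Musk, the receptor of the neuromuscular junction, and Ros1, an orphan-like receptor of epithelia, had at most 0.00648 FPKM in either condition. Ntrk2, the receptor of Bdnf, was listed at 0 in PID− cells and had 0.00175 FPKM in PID+ cells, and Ntrk3 and Alk were listed at 0 in both. The values of Insrr, Musk, Ros1 and Ntrk2 stand for approximately 3 reads or fewer, and those of Ret for approximately 257 and 244 reads.

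Several receptors lie close together in the genome. Pdgfra, Kit and Kdr lie in a row on chromosome 5, with 376700 bases between Pdgfra and Kit and 276104 bases between Kit and Kdr, and changed by −0.07, 0.18 and 1.11 on the log2 scale. Flt1 and Flt3 lie 161114 bases apart on chromosome 5, with changes of −2.26 and −0.01. These neighbors differed in their change. Tyro3 and Ltk, 37301 bases apart on chromosome 2, were both higher, by 1.04 and 0.80, or 0.50 and 0.23 with Gapdh set equal, and Pdgfrb and Csf1r, 15536 bases apart on chromosome 18, had changes of −0.87 and −0.22.

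Ligands of these receptors were read from lists of 59 genes, of which 58 were found and Flt3l was not matched. Of the 58, 0 were higher by at least 3-fold in PID+ cells and 4 lower, beside 1.04% and 1.72% of all genes. Pros1, a ligand of Tyro3 and Mertk, had 7.93 FPKM in PID− cells and 0.314 FPKM in PID+ cells. Gas6, the ligand of Axl, had 15.2 and 3.50 FPKM. Both listed Tam ligands were thus lower in PID+ cells, as were Axl and Mertk, while Tyro3 was higher.

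Vegfd, a ligand of Flt4, had 3.12 FPKM in PID− cells and 0.0941 FPKM in PID+ cells. With the chromosome median subtracted its log2 change was −1.46, short of 3-fold. Vegfa, the most abundant Vegf, had 155 and 130 FPKM. Gdf15, which signals through Gfral and Ret, had 78.3 FPKM in PID− cells and 19.2 FPKM in PID+ cells. Its receptor Gfral was listed at 0 in both conditions. Met and Mst1r had little ligand RNA by FPKM in either condition: Mst1, the more abundant of their ligands, had 0.319 and 0.101 FPKM. The upper bounds of Mst1 were 5.12 in PID− cells and 1.21 in PID+ cells, so its level is uncertain.

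Other ligand families were led by genes short of 3-fold. Pdgfa, a ligand of Pdgfra, had 49.7 FPKM in PID− cells and 37.1 FPKM in PID+ cells. Fgf13, an intracellular relative of the Fgf ligands, had 35.6 and 54.1 FPKM. Csf1, the ligand of Csf1r, led its list in PID− cells with 31.0 FPKM and had 12.3 FPKM in PID+ cells, and Kitl, the ligand of Kit, led it in PID+ cells with 21.3 FPKM, against 16.5 FPKM in PID− cells. Ligands of stromal and blood cell receptors were thus present in cells with little of the receptors themselves.

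The most abundant neurotrophin in PID− cells was Bdnf, with 4.78 FPKM there and 1.63 FPKM in PID+ cells. Insulin-like growth factors were scarce, with 0.171 FPKM of Igf1 in PID− cells and 0.160 FPKM of Igf2 in PID+ cells as the highest of that list. Angiopoietins and Alk ligands were also under 1 FPKM: Angpt4 led the former in PID− cells with 0.143 FPKM and Angpt2 in PID+ cells with 0.262 FPKM, and midkine (Mdk) led the latter with 0.218 and 0.246 FPKM.

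Of 15 co-receptors and binding partners, 0 were higher by at least 3-fold in PID+ cells and 2 lower, beside the same 1.04% and 1.72% of all genes. Fgfrl1, an Fgf receptor relative without a kinase domain, had 44.1 FPKM in PID− cells and 6.89 FPKM in PID+ cells, beside the lower Fgfr1. Gfra1, the co-receptor of Ret for Gdnf, had 3.39 and 0.0741 FPKM. The heparan sulfate proteoglycan Sdc1, the most abundant of the list, had 191 and 176 FPKM.

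Of 24 adaptors and signal transducers, 3 were at least 3-fold higher and 1 was at least 3-fold lower, where 1.04% and 1.72% of all genes were. All 24 reached 1 FPKM in at least 1 condition, as did 11785 of the 21959 genes, among which 229 were higher and 377 lower. Grb14, which binds and inhibits the insulin receptor, had 1.24 FPKM in PID− cells and 17.7 FPKM in PID+ cells, with intervals apart. Its relative Grb10, also an inhibitor of insulin and Igf1 receptors, had 9.88 FPKM in PID− cells and 0.248 FPKM in PID+ cells, again with intervals apart. These related adaptors differed in opposite directions; the change of Insr itself was −0.09, or −0.63 with Gapdh set equal.

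Grb7, the remaining member of that adaptor family, had 7.54 FPKM in PID− cells and 26.8 FPKM in PID+ cells, and Irs2, an insulin receptor substrate, had 3.59 and 13.2 FPKM. With Gapdh set equal these 2 genes were no longer past 3-fold. Crk, the most abundant adaptor of the list, had 79.2 and 85.0 FPKM. The change of Crk was 0.10, or −0.52 with Gapdh set equal.

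Of 14 genes that remove or inhibit receptors, 1 was at least 3-fold higher and 1 at least 3-fold lower, against 1.04% and 1.72% of all genes. Ptprb, a receptor phosphatase best known for acting on Tek and Kdr in vessels, had 0.0244 FPKM in PID− cells and 14.7 FPKM in PID+ cells, with intervals apart. Sh3kbp1, which joins Cbl to the endocytosis of receptors, had 41.9 and 12.0 FPKM. With the median of the X chromosome, −0.45, subtracted its change was −1.27 and that of Vegfd −1.46, both short of 3-fold. Errfi1, an inhibitor of Egfr, was the most abundant of the list in PID− cells, with 55.3 FPKM there and 30.7 FPKM in PID+ cells, and Cblc in PID+ cells, with 35.6 FPKM there and 14.7 FPKM in PID− cells.

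The other receptor tyrosine kinases are given for scale. The 4 ErbB receptors summed to 45.8 FPKM in PID− cells and 81.6 FPKM in PID+ cells, with Egfr the most abundant at 24.9 and 42.3 FPKM and 0 past 3-fold. The 14 Eph receptors summed to 161 and 244 FPKM, led by Epha2 with 112 and 168 FPKM, and Epha1 was past 3-fold with 3.14 and 20.9 FPKM. With Gapdh set equal the log2 change of Epha2 was −0.04. Of 8 further receptor tyrosine kinases Ror2, a Wnt5a receptor, was at least 3-fold lower, with 3.61 and 0.312 FPKM. Over all genes 1.04% were past 3-fold higher and 1.72% lower. Ryk led in PID− cells with 53.7 FPKM, and Styk1 in PID+ cells with 44.3 FPKM.

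The label of epithelial tumor cells was read against markers. Of 12 epithelial markers 11 reached 1 FPKM in at least 1 condition; Krt19 was the most abundant in PID− cells with 2073 FPKM, and Krt18 in PID+ cells with 2843 FPKM, and the list summed to 5009 and 9123 FPKM. By FPKM 9 of the 12 were higher in PID+ cells, 7 of them by at least 2-fold, and 3 were lower, 2 of them by at least 2-fold, where 3.31% and 3.77% of all genes passed 2-fold; the median log2 change was 1.08 beside 0 over all genes. With Gapdh set equal, an alternative chosen after seeing the data, 2 were at least 2-fold higher and 3 at least 2-fold lower, beside 1.18% and 11% of all genes, and the median was 0.45 beside −0.08 over all genes. At 3-fold, 2 were higher (Epcam and Cldn7) and 2 lower (Cdx2 and Cdh17), beside 1.04% and 1.72% of all genes, and Cdh17 had intervals apart. With Gapdh set equal Epcam changed by 1.06 and Cldn7 by 1.15, short of 3-fold, and Cdx2 by −2.74 and Cdh17 by −3.69. Vil1, the 1 marker under 1 FPKM in both, had 0.0614 and 0.175 FPKM. These 5 genes were named after their values were seen.

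Genes of the mesenchymal state were mostly lower in PID+ cells, 6 of 7 by FPKM, with a median log2 change of −2.64 beside 0 over all genes. In PID+ cells 4 of 7 such genes were lower by at least 3-fold, beside 1.72% of all genes: Vim, Zeb1, Zeb2 and Snai2, named after their values were seen, of which Vim had 997 FPKM in PID− cells and 19.1 FPKM in PID+ cells. The intervals of Vim, Zeb1 and Zeb2 were apart. Twist1 had 22.2 and 12.8 FPKM. Fn1, the most abundant of the list, had 1118 and 1597 FPKM, a change of 0.51 that turned to −0.11 with Gapdh set equal, and the list summed to 2220 and 1670 FPKM. Cdh2, named like Twist1 after its value was seen, had 39.4 and 38.8 FPKM.

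Fibroblast markers were also lower beside the mesenchymal receptors. In PID+ cells 4 of 9 markers were lower by at least 3-fold, beside 1.72% of all genes, and the list summed to 35.1 FPKM in PID− cells and 2.87 FPKM in PID+ cells. Col1a2 was the most abundant in PID− cells, with 11.9 FPKM there and 0.0654 FPKM in PID+ cells, and Col1a1 in PID+ cells, with 2.32 FPKM there and 11.9 FPKM in PID− cells. Lum and Tcf21 were listed at 0 in both conditions. The part of these markers in the lower Fgfr1, Axl, Ddr2 and Pdgfrb was not tested.

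Markers of smooth muscle and pericytes summed to 11.1 FPKM in PID− cells and 8.09 FPKM in PID+ cells. Of the 7, 5 were under 1 FPKM in both, and Acta2 was the most abundant at 9.76 and 4.39 FPKM. By FPKM 4 of the 7 were higher in PID+ cells and 3 lower. Notch3, with 0.998 and 3.30 FPKM, was the 1 marker past 2-fold, where 3.31% of all genes were at least 2-fold higher. With Gapdh set equal Notch3 changed by 0.65, short of 2-fold, and Acta2 by −1.48, past it. Macrophage markers summed to 45.7 and 51.6 FPKM, led by Cd14 with 28.6 and 29.1 FPKM. Of the 8 macrophage markers, 6 were under 1 FPKM in both conditions, with C1qa and C1qb listed at 0. Of 8 mast cell and basophil markers Cpa3, Tpsb2, Ms4a2 and Fcer1a were listed at 0, and Mcpt8 had 9.60 and 82.5 FPKM and made up nearly all of the list. Their part in the levels of Csf1r, Mertk and Kit was not tested.

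Platelet markers summed to 233 FPKM in PID− cells and 2323 FPKM in PID+ cells, nearly all of it from the chemokine gene Ppbp, and 3 of the 5 were under 1 FPKM in both conditions. The markers of interstitial cells of Cajal, Ano1 and Etv1, summed to 100.1 and 129 FPKM. Nearly all of that sum came from Ano1, and Etv1 had 0.0538 and 0.290 FPKM. Neuron and glia markers summed to 4.09 and 1.32 FPKM, and 4 of the 6 were under 1 FPKM in both conditions. Tubb3 led in PID− cells with 2.15 FPKM, but its upper bounds were 65.4 in PID− and 18.4 in PID+ cells. Sox10 was listed at 0 in both conditions. Their part in the levels of Kit and Ret was not tested.

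Promoters were searched for the letters CAGGTG, an E-box that Snai and Zeb factors bind in textbook accounts. RefSeq promoters of 300 bases (GRCm38.p6) were found for 25 of the 32 receptors; Fgfr1, Pdgfrb, Csf1r, Insr, Insrr, Ntrk3 and Ret had no entry. The letters CAGGTG, or CACCTG on the other strand, stood in 3 of the 31 promoters of these receptors (9.68%), those of Met, Flt4 and 1 of 4 of Ddr1, beside 20.2% of the 32851 promoters in all. A match is a description of the sequence only. The promoters of Met, with the letters in capitals, and of Mst1r (1 of 2, the one with the lower start) and Flt1, which lack them, are shown because these receptors had the higher or lower values above: Met at chr6:17463707-17464006 on the plus strand, Mst1r at chr9:107906639-107906938 on the plus strand and Flt1 at chr5:147725962-147726261 on the minus strand.
Met: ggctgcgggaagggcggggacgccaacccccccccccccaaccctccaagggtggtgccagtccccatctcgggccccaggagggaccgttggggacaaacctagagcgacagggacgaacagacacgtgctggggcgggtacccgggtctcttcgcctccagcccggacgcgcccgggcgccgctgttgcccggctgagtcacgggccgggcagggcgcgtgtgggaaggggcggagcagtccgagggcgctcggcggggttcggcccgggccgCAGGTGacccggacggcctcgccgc
Mst1r: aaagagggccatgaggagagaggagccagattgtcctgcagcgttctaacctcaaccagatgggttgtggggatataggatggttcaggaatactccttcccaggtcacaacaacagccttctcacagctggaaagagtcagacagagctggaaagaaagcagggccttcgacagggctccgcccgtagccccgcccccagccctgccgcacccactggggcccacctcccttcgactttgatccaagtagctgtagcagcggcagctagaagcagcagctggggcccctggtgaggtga
Flt1: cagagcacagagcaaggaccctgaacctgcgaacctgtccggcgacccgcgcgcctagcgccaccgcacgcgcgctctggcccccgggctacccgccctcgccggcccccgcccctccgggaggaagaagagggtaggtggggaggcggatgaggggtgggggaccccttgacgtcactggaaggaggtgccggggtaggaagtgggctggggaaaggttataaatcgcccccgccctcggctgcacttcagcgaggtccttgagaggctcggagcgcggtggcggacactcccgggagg

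The surroundings of the letters in Ddr1 (chr17:35702072-35702131, minus strand) and Flt4 (chr11:49609429-49609475, plus strand) are shown for comparison with Met, again with the letters in capitals.
Ddr1: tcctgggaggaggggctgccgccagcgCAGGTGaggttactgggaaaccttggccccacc
Flt4: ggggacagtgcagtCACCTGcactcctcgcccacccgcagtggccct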

How the data were processed

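The members and gene lists were chosen with earlier results of these data known. The FPKM values and their bounds were deposited by the authors, who trimmed reads with cutadapt, aligned them with TopHat and Bowtie2 to GRCm38.p3, merged the 3 sets of reads of a condition and ran CuffDiff. The methods call these sets replicated sequencing runs, while the labels name separate mice. Rows called untreated were taken as PID− and the others as PID+. The transgene has no row on which this could be checked. By qPCR the paper reports less vimentin and N-cadherin and more E-cadherin RNA in PID+ cells. As assigned here, Vim had 997 FPKM in PID− cells and 19.1 FPKM in PID+ cells, Cdh2 had 39.4 and 38.8, and Cdh1 had 88.0 and 192. Fn1, whose protein the paper reports as higher in PID− cells, had 1118 and 1597 FPKM. Of 21966 genes, 7 without an OK status were left out, and 17 with an upper bound below the FPKM were not compared by interval. Positions came from Gencode M21 (GRCm38).

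No p-value was computed. Every receptor is named; of pathway lists, genes past 3-fold and the most abundant gene; of marker lists, the most abundant gene and those at 0, unless stated. Some genes that this rule names are not reported here. The planned protein motif search was not run.

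Reads behind a value are approximate and were estimated by a rule chosen after seeing the data. In genes with 1 transcript, low FPKM times corrected length fell within 0.1 of a whole multiple of a common step in 91.4% (PID−) and 91.8% (PID+) of values. Fractions of a step do as well, so the largest step within 0.05 of the best share was taken; double that step gave 51.9% and 53.4%. Genes with several transcripts used the longest.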

Additional observations from a re-analysis of the deposited data

How the results depend on the processing

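No paired analysis was possible because each condition has 1 pooled value per gene, and leaving out a replicate was not possible for the same reason. The count of 0 receptors at least 3-fold higher was 2 with a pseudocount of 0.1, 1 with chromosome medians subtracted and 4 at 2-fold. The count of 2 receptors at least 3-fold lower was 4 with a pseudocount of 0.1, 1 with intervals apart as well and 0 among receptors with a mean FPKM of at least 5, a filter that removes Fgfr1 and Flt1. Equal upper quartiles, Gapdh or total FPKM left both counts, and that of intervals apart, as they were. With equal Gapdh 76 of all 21959 genes were at least 3-fold higher and 662 lower.

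The median change of 0.49 over the 15 receptors that reached 1 FPKM was 0.51 with a pseudocount of 0.1, 0.52 with equal upper quartiles, 0.39 with equal total FPKM, 0.52 with chromosome medians subtracted and 0.57 over receptors averaging 5 FPKM or more; with equal Gapdh it was −0.11, where all genes with that mean moved by −0.58. The ratio of summed FPKM of the epithelial class, 1.70, was 1.73 with equal upper quartiles, 1.10 with equal Gapdh and 1.58 with equal total FPKM, and that of the mesenchymal class, 0.419, was 0.427, 0.272 and 0.390. The sign of 9 receptor changes turned with equal Gapdh, which lowers all PID+ values alike, and of 3 with chromosome medians subtracted. None of these receptors was past 3-fold.

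The following alternatives were chosen after seeing the data. The count of 4 pathway genes at least 3-fold higher was 2 with equal Gapdh and 2 with intervals apart as well. That of 8 at least 3-fold lower was 5 among genes averaging 5 FPKM or more and 1 with intervals apart as well. It was 10 with equal Gapdh and 6 with chromosome medians subtracted, which ended the calls of Sh3kbp1 and Vegfd. Of all 21959 genes, 229 were at least 3-fold higher and 377 lower as deposited, and 76 and 662 with equal Gapdh. The count of 4 receptors at least 2-fold higher was 1 with equal Gapdh, 2 with chromosome medians subtracted and 3 with equal total FPKM, and that of 2 lower was 6 with a pseudocount of 0.1 and 3 with equal Gapdh or chromosome medians subtracted. The median over all 32 receptors, 0.0022, was 0.020 with a pseudocount of 0.1, 0.059 with chromosome medians subtracted, 0.0023 with equal upper quartiles, 0.0013 with equal total FPKM and −0.036 with equal Gapdh. Of 12 epithelial markers, the 7 at least 2-fold higher were 2 and the 2 lower were 3 with equal Gapdh, and their median went from 1.08 to 0.45. Where not stated, the cause was not tested. Pooling limits every comparison: the intervals come from a model, and mice cannot be set against each other.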
